A study of Mus musculus with 6 samples.

Results

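The genes described here carry potassium and chloride across the stria vascularis, the epithelium of the cochlear lateral wall that secretes potassium into endolymph. They were chosen by name from this known machinery and matched by gene symbol, which gave 7 of the 17091 genes in the deposited table: Kcnq1, Kcne1, Kcnj10, Slc12a2, Atp1b1, Atp1b2 and Bsnd. RNA was sequenced from the lateral wall of 3 old CBA/CaJ mice aged 2.5 years and 3 young CBA/CaJ mice aged 2 months, and the question named by the study's title is what changes in this tissue with age. CBA/CaJ is an inbred strain, no group carries a transgene or a treatment, each library pooled the cochleas of a single mouse, and the labels give no sex. Recovered read totals ran from 37577314 to 39103398 in old and from 37055355 to 38179961 in young libraries.

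Marginal cells face endolymph and release potassium through an apical channel built from the KCNQ1 pore and its KCNE1 subunit. They take potassium up at their basolateral side with the sodium-potassium-chloride cotransporter encoded by Slc12a2 and with Na,K-ATPase, whose beta subunits include the products of Atp1b1 and Atp1b2. Barttin, encoded by Bsnd, is the accessory subunit of the chloride channels that let chloride leave again, and the intermediate cell channel encoded by Kcnj10 is needed for the endocochlear potential. In mice and humans, loss of several of these genes causes deafness.

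The libraries held transcripts of the cells these genes are known from. All 7 marginal cell markers that are not themselves among the genes described (such as Esrrb and Wnk2) were measured, and their summed level was 42863 to 65726 normalised read counts in old and 41994 to 52506 in young libraries. The intermediate cell gene Dct stood at 135921 to 186382 in old and 167796 to 172081 in young libraries. Among the intermediate cell markers Tyrp1 was near 0, at 0.970 to 4.80 in old and 2.10 to 24.9 in young libraries, and Pmel was low, at 35.9 to 71.1 in old and 32.5 to 51.1 in young libraries. A source label names auditory nerve cells whereas the tissue label names the lateral wall. The summed level of 7 neuron markers was 629, 4957 and 5802 in old replicates 1, 2 and 3 and 384 to 731 in young libraries. Old replicate 3 alone had little Xist (45.2 against 24382 to 29162 normalised read counts in the other 5 libraries), so the result on Atp1b2 is also given without it.

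Of the 7 genes, Atp1b2 fell in old lateral wall and none rose. Atp1b2 encodes the beta-2 subunit of Na,K-ATPase, also known as the adhesion molecule on glia. It had 87202, 89396 and 110596 normalised read counts in old replicates 1, 2 and 3, against 143395, 146002 and 147123 in young replicates 1, 2 and 3. Every old library lay below every young library, and the young libraries stood within 1.03-fold of each other. The mean was 95731 ± 12920 in old and 145507 ± 1913 in young mice (SD, n = 3 each). The fall was 34.6% (95% interval 20.7% to 46.1%), or -0.61 ± 0.12 on the log2 scale (SE), with a limma adjusted p of 0.0256 over all 17091 genes. Of all genes tested, 5.25% were called by limma in either direction and 2.55% were called lower in old mice. The groups did not overlap in 26.1% of all genes (13.2% higher and 12.8% lower in old mice), so that separation alone does not set Atp1b2 apart.

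The call of Atp1b2 depends on the libraries, the scaling and the variance model. On the recovered reads the adjusted p was 0.0328 with edgeR, which called 2.24% of all genes lower and 2.76% higher in old mice, and 5.94e-05 with DESeq2, which called 5.03% lower and 5.82% higher. The authors' deposited table gives Atp1b2 a signed fold of -1.52 and an adjusted p-value of 5.92e-05. Without old replicate 3 the log2 fold change was -0.72 (limma adjusted p = 0.00851), and without old replicate 2 it was -0.57 (limma adjusted p = 0.0317). Without young replicates 1, 2 or 3 or old replicate 1 it was -0.62, -0.61, -0.60 and -0.55 and was not called, with limma adjusted p of 0.0796, 0.109, 0.125 and 0.0812. With quantile normalisation it was -0.34 and was not called (limma adjusted p = 0.195). At the same estimate of -0.61 it was not called without trend and robust variance (limma adjusted p = 0.0780) or with the replicate number as a block (limma adjusted p = 0.0616). Summed markers of some other lateral wall cells were low in the old libraries. The summed level of 7 fibrocyte markers was 503124 to 1049770 in old and 1124636 to 1271399 in young libraries, with 1 marker called lower, and that of 4 basal cell markers was 31736 to 33276 in old and 34676 to 38451 in young libraries, with 0 called. Neither sum overlapped between the groups, but most single markers did. Only Otos and Tbx18 among the fibrocyte markers and Cldn11 among the basal cell markers did not overlap. Otos, the marker called lower, stood at 37827 to 61099 in old and 121947 to 170591 in young libraries. The part of these lists in the fall of Atp1b2 was not tested. In whole tissue, fewer cells of a type and less RNA per cell cannot be told apart.

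**Figure D1:**
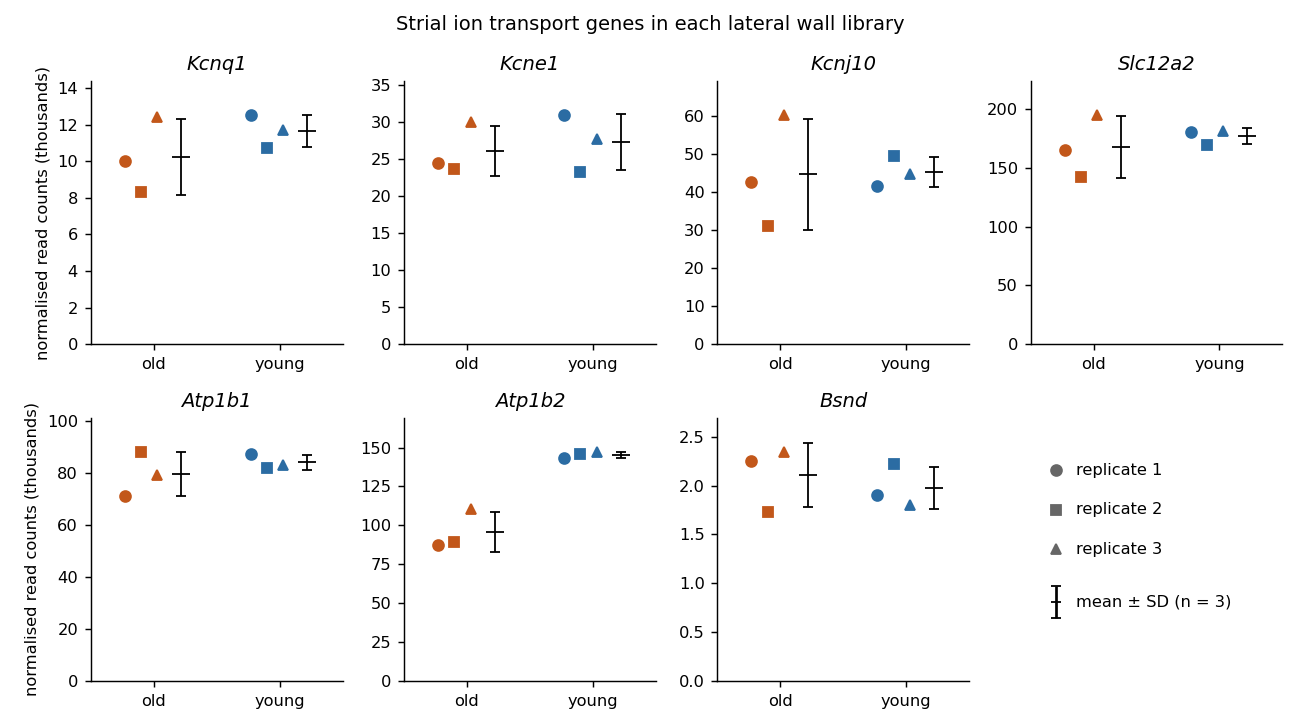
Normalised read counts, scaled as each axis states, for each of the 7 genes in every library, old left of young, with replicate number as symbol and the mean ± SD (n = 3) beside each group; each axis starts at 0. Atp1b2 is the only panel in which the old libraries, at 87202 to 110596, all lie below the young libraries, at 143395 to 147123.

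The other beta subunit gene of the group did not follow. Atp1b1, which encodes the beta-1 subunit, had 71082, 87960 and 79052 normalised read counts in old replicates 1, 2 and 3, against 87224, 81925 and 82839 in young replicates 1, 2 and 3. The groups overlapped, with old replicate 2 the highest of all 6 libraries and old replicate 1 the lowest. The old over young ratio was 0.942 (95% interval 0.787 to 1.13, limma adjusted p = 0.722). The interval of Atp1b1 therefore reaches down to a fall of 21.3%, while that of Atp1b2 starts at a fall of 20.7%.

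The balance between the 2 subunit genes can be read within a library, where no scaling enters. Atp1b1 stood at 0.815, 0.984 and 0.715 times Atp1b2 in old replicates 1, 2 and 3, against 0.608, 0.561 and 0.563 in young replicates 1, 2 and 3, in normalised read counts. Every old ratio was above every young ratio. The difference of the mean log2 ratio was 0.53, or 1.44-fold, with an exact two-sided permutation p of 0.1, which is the smallest that 3 against 3 libraries allow. Adjusted over the 4 ratios tested between members, p was 0.4.

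Another subunit gene, Atp1b3, is transcribed in this tissue as well, and the levels of the beta genes were compared per kilobase of merged exon. Of the summed level of Atp1b1, Atp1b2 and Atp1b3, Atp1b2 made up 33.7%, 28.3% and 40.3% in old replicates 1, 2 and 3, against 40.9%, 43.6% and 43.0% in young replicates 1, 2 and 3. Its share was lower in all old libraries, with old replicate 3 only just below young replicate 1. Atp1b1 made up 37.2% ± 0.923 in old and 32.5% ± 0.445 in young libraries (SD, n = 3 each). Atp1b3 varied most among the old mice, at 29.9%, 34.7% and 21.5% in old replicates 1, 2 and 3 and 24.0% to 26.2% in young libraries. Atp1b3 itself was not called, with a limma estimate of -0.11 ± 0.20 on the log2 scale (SE, adjusted p = 0.802). The summed level per kilobase was 69251 ± 7197 in old and 83916 ± 1955 in young libraries (SD, n = 3 each).

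**Figure D2:**
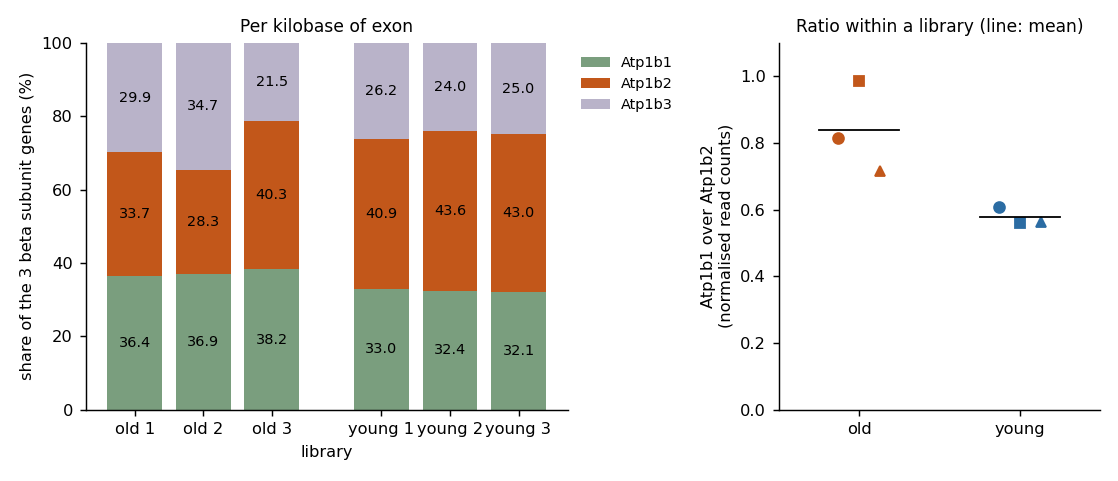
Left, share in percent of each Na,K-ATPase beta subunit gene in their summed level per kilobase of exon, by library, old left of young; right, ratio of Atp1b1 to Atp1b2 in normalised read counts, with replicates 1, 2 and 3 as circle, square and triangle and the mean as a line. Atp1b2 has 28.3% to 40.3% in old and 40.9% to 43.6% in young libraries, and all old ratios, 0.715 to 0.984, exceed all young ratios, 0.561 to 0.608.

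The 2 subunit genes are different enough for their reads to be told apart. Their coding sequences, 912 bases for Atp1b1 and 870 for Atp1b2, were identical at 62.0% of 834 aligned bases (GENCODE M21, GRCm38). The longest run of bases that both share is 19 bases long. It is shown with 30 bases on each side, because it is the stretch in which reads of the pair could most easily be confused. Each window crosses the junction of exons 5 and 6 on the minus strand, at chr1:164438498-164439335 for Atp1b1 and chr11:69601582-69602461 for Atp1b2, and is printed 5′ to 3′ with the shared run in capitals.
Atp1b1: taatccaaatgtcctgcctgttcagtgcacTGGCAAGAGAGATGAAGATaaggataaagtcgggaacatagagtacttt
Atp1b2: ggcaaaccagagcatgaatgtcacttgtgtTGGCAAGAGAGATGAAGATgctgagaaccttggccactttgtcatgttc
None of the 4240 distinct 50-base words of the Atp1b2 transcripts occurred in a transcript of another annotated gene, on either strand. For Atp1b1, 15.8% of such words lay in Nme7, a gene that overlaps its exons on the opposite strand. Strand handling of the kit and the counting is not stated in the labels, so reads in that overlap are uncertain. Nme7 was counted at 316 to 407 in old and 290 to 360 in young libraries, far below Atp1b1.

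The apical channel genes of marginal cells did not differ beyond the spread of the libraries. Kcnq1, which encodes the pore, had 10002, 8301 and 12448 normalised read counts in old replicates 1, 2 and 3, against 12511, 10739 and 11695 in young replicates 1, 2 and 3. The groups overlapped: old replicates 1 and 2 were below all young libraries, and old replicate 3 was second highest of all. The old over young ratio was 0.870 (95% interval 0.693 to 1.09, limma adjusted p = 0.479). Without old replicate 3 the log2 difference was -0.35 (95% interval -0.61 to -0.09, limma adjusted p = 0.135), and without old replicate 2 it was -0.06 (limma adjusted p = 0.848).

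Kcne1, which encodes the subunit that slows the channel, had 24505, 23748 and 29979 normalised read counts in old replicates 1, 2 and 3, against 30938, 23286 and 27781 in young replicates 1, 2 and 3. The highest and the lowest library were both young. The old over young ratio was 0.955 (95% interval 0.771 to 1.18, limma adjusted p = 0.833). Kcne1 stood at 2.45, 2.86 and 2.41 times Kcnq1 in old replicates 1, 2 and 3, against 2.47, 2.17 and 2.38 in young replicates 1, 2 and 3. The difference of the mean log2 ratio was 0.14 (exact two-sided permutation p = 0.3, 0.4 adjusted over the 4 ratios). Per kilobase of exon, the level was 8114 ± 1058 for Kcne1 and 2504 ± 509 for Kcnq1 in old libraries, and 8505 ± 1196 for Kcne1 and 2846 ± 217 for Kcnq1 in young libraries (SD, n = 3 each). The transcript of the subunit was thus the more abundant in both groups.

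Kcnq1 spans the antisense transcript gene Kcnq1ot1, which lies on the opposite strand, and 1.94% of the 50-base words of Kcnq1 transcripts occur there. Kcnq1ot1 was counted at 323 to 516 in old and 265 to 345 in young libraries, and it differed by 0.30 ± 0.21 on the log2 scale (SE, limma adjusted p = 0.466). Reads of this pair are uncertain where they overlap, but the count of Kcnq1ot1 is small beside that of Kcnq1.

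The intermediate cell channel gene had the widest spread among old mice. Kcnj10 had 42775, 31115 and 60296 normalised read counts in old replicates 1, 2 and 3, against 41737, 49662 and 44717 in young replicates 1, 2 and 3. Old replicate 2 was the lowest and old replicate 3 the highest of all 6 libraries, 1.94-fold apart, while the young libraries stood within 1.19-fold. The old over young ratio was 0.953, and its 95% interval of 0.680 to 1.34 is the widest of the 7 (limma adjusted p = 0.892). Relative to Kcnq1, Kcnj10 stood at 3.75 to 4.84 in old and 3.34 to 4.62 in young libraries (exact two-sided permutation p = 0.5, also 0.5 adjusted over the 4 ratios). Kcnj10 is also transcribed in glia, and the summed level of 7 glial markers was 27841, 35188 and 39613 in old replicates 1, 2 and 3 and 22524 to 27470 in young libraries, a movement whose part in these values was not tested. In addition 1.62% of its 50-base words recur in transcripts of 96 other genes.

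The cotransporter gene Slc12a2 was among the most abundant transcripts, 9th of 17091 by mean normalised read count and 55th of 16799 per kilobase of exon. It had 165707, 142357 and 194835 normalised read counts in old replicates 1, 2 and 3, against 180338, 169519 and 181735 in young replicates 1, 2 and 3. The old libraries fell on both sides of the young ones. The old over young ratio was 0.939 (95% interval 0.759 to 1.16, limma adjusted p = 0.756). Fibrocytes of the spiral ligament also use this cotransporter, and the summed level of 7 fibrocyte markers was 675285, 1049770 and 503124 in old replicates 1, 2 and 3, below the 1124636 to 1271399 of young libraries. Its order among the old libraries was the reverse of that of Slc12a2, and its part in these values was not tested.

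The chloride channel subunit gene Bsnd was the least abundant of the 7. It had 2246, 1730 and 2342 normalised read counts in old replicates 1, 2 and 3, against 1905, 2215 and 1797 in young replicates 1, 2 and 3. The groups overlapped, with the highest and the lowest library both old. The old over young ratio was 1.06 (95% interval 0.855 to 1.32, limma adjusted p = 0.773). Relative to Kcnq1, Bsnd stood at 0.188 to 0.225 in old and 0.152 to 0.206 in young libraries (exact two-sided permutation p = 0.2, 0.4 adjusted over the 4 ratios).

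**Figure D3:**
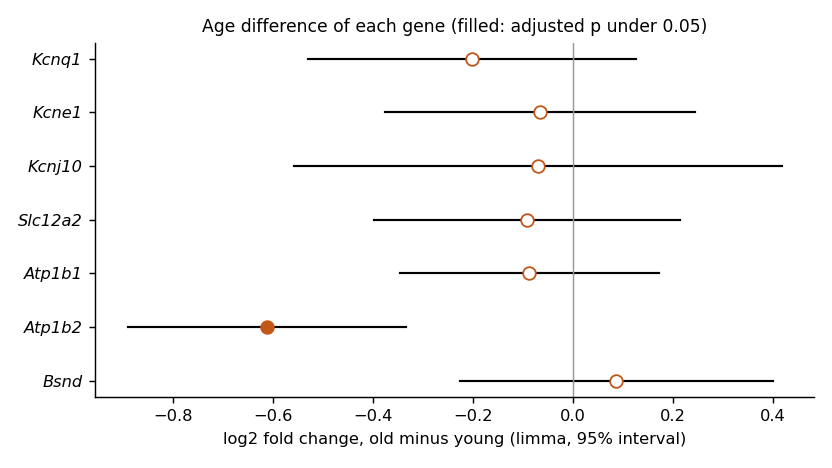
Log2 fold change, old minus young, of each gene with its 95% interval from limma; a filled point marks an adjusted p under 0.05 over all genes. The interval of Atp1b2, -0.89 to -0.33, lies below 0, and those of the other 6 genes include 0.

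Per kilobase of exon the genes took the order Atp1b2, Atp1b1, Slc12a2, Kcne1, Kcnj10, Kcnq1 and Bsnd in young libraries, with means of 35620 ± 468, 27263 ± 919, 16227 ± 612, 8505 ± 1196, 8391 ± 740, 2846 ± 217 and 716 ± 78.8 (SD, n = 3). Kcne1 and Kcnj10 differed by less than their spread, and the other neighbours did not overlap. In old libraries Atp1b1, at 25759 ± 2740, stood above Atp1b2, at 23435 ± 3163, and Kcnj10, at 8272 ± 2717, above Kcne1, at 8114 ± 1058 (SD, n = 3), each pair within its spread. All 7 genes together took 1.09%, 1.04% and 1.36% of the recovered reads in old replicates 1, 2 and 3 and 1.25%, 1.26% and 1.28% in young replicates 1, 2 and 3. By mean normalised read count, 6 of the 7 ranked within the first 414 of 17091 genes, and Bsnd ranked 4145th.

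The old libraries differed from each other in a pattern that 5 of the 7 genes shared. Kcnq1, Kcne1, Kcnj10, Slc12a2 and Bsnd were highest in old replicate 3, intermediate in old replicate 1 and lowest in old replicate 2. The share of all genes with this order was not determined, so the order is given as a description only. Atp1b2 was highest in old replicate 3 and lowest in old replicate 1, and Atp1b1 was highest in old replicate 2 and lowest in old replicate 1. The mean deviation of the marginal cell markers from their young mean was 0.05, -0.30 and 0.29 log2 units in old replicates 1, 2 and 3, which is the order of those 5 genes. That of the intermediate cell markers was -0.20, -0.14 and 0.32. It includes Tyrp1, which was near 0 and had the log2 fold change of largest size in that list, at -1.79. The summed level of the 8 intermediate cell markers, in which Dct weighs most, was 209250, 176507 and 248332 in old replicates 1, 2 and 3. In young libraries that sum was 203663 to 216271. Blood and marrow markers had the order of those 5 genes too. The summed level of 7 neutrophil and marrow markers was 4804, 553 and 9297 in old replicates 1, 2 and 3 and 239 to 409 in young libraries. That of 8 erythroid markers was 21942, 7125 and 43294 in old replicates 1, 2 and 3 and 2884 to 4960 in young libraries. The summed level of 7 macrophage markers was 17734 to 28674 in old and 4549 to 5355 in young libraries, and the part of these lists in the values of the 7 genes was not tested.

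The spread among old mice exceeded that among young mice in 6 of the 7 genes, Kcne1 being the exception. The SD of the log2 values of Atp1b2 was 0.19 in old and 0.02 in young libraries, that of Slc12a2 0.23 in old and 0.06 in young, and that of Kcnj10 0.48 in old and 0.13 in young. The median of this SD was 0.18 in old and 0.14 in young libraries over the 13308 genes whose values averaged 50 or more. With 3 libraries per group such SDs are imprecise, and their difference was not tested. Old replicate 3, the library with little Xist, was the highest old library for Atp1b2, Slc12a2 and Kcnj10, and its part in the spread was not tested.

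**Figure D4:**
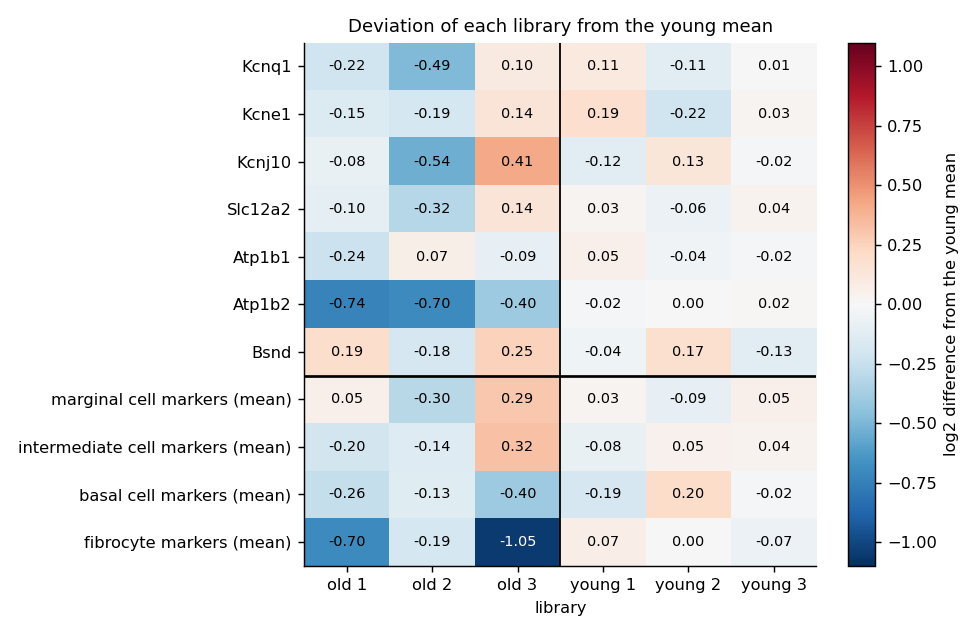
Log2 difference of each library from the young mean, for the 7 genes and, under the line, for the mean of 4 marker lists; columns are libraries, old left of young, and red and blue mark values above and under the young mean. Atp1b2 is low in all old libraries, at -0.74, -0.70 and -0.40, whereas Kcnj10 runs from -0.54 in old replicate 2 to 0.41 in old replicate 3. The mean of the intermediate cell markers includes Tyrp1, which was near 0.

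The genes were also set against the markers of their cell type, and Atp1b2 against each other gene of the group, comparisons chosen after the values were seen and given without a test. Relative to the mean of the 7 marginal cell markers, Atp1b2 stood at -0.79, -0.40 and -0.69 log2 units in old replicates 1, 2 and 3, against -0.05, 0.09 and -0.04 in young replicates 1, 2 and 3. Kcnq1 on that scale stood at -0.27, -0.18 and -0.19 in old replicates 1, 2 and 3, against 0.07, -0.03 and -0.04 in young replicates 1, 2 and 3. The groups did not overlap for these 2 genes, both lower in old mice, which on this scale held for 7.37% of all genes (16.1% in either direction). The marker mean includes Esrrb, which had the largest log2 fold change of the 7 markers, at 0.82. Esrrb ran from 7063 to 19136 normalised read counts in young libraries, and its part in the separation of Kcnq1 was not tested. The groups overlapped for Kcne1, Slc12a2, Atp1b1 and Bsnd, as they did for Kcnj10 relative to the intermediate cell markers. Divided by any of the other 6 genes, Atp1b2 was lower in every old library than in every young library. These ratios all hold the values of Atp1b2, which already separated the groups alone, so they are not separate results. The share of all genes that separate on such ratios was not determined. The margin was narrowest against Kcnj10, at up to 2.87 in old and from 2.94 in young libraries, and wider against Kcne1, at up to 3.76 in old and from 4.63 in young libraries.

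Relatives of the 7 genes were counted in 5 lists that hold 40 tested genes. Of these, 1 rose and 0 fell by limma at an adjusted p under 0.05, against 2.71% of all genes called higher and 2.55% called lower. At an unadjusted p under 0.05, 7 were higher and 5 lower by limma. The share of all genes past that unadjusted threshold was not determined. Such counts, here and for the single lists, are therefore a description only. The gene that rose was Fxyd3, which encodes a small membrane protein that associates with Na,K-ATPase. It had 4458, 4784 and 5056 normalised read counts in old replicates 1, 2 and 3, against 3217, 2741 and 2185 in young replicates 1, 2 and 3. All old libraries were above all young ones, by 0.83 ± 0.14 on the log2 scale (SE, limma adjusted p = 0.0135). The call was lost without young replicate 2 and kept without each of the other 5 libraries. edgeR called 2 of the 40 genes higher and 0 lower, against 2.76% of all genes higher and 2.24% lower. DESeq2 called 3 of the 40 higher and 3 lower, against 5.82% of all genes higher and 5.03% lower.

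Among the other Na,K-ATPase and FXYD genes, 1 of 9 rose and 0 fell by limma, with a median log2 fold change of 0.29 against -0.00097 over all genes tested. Fxyd1, which encodes the regulator phospholemman, had the next smallest p. It had 1499, 1790 and 1728 normalised read counts in old replicates 1, 2 and 3, against 2543, 2409 and 1930 in young replicates 1, 2 and 3. Its groups did not overlap, which held for 26.1% of all genes, and it differed by -0.45 ± 0.13 on the log2 scale (SE, limma adjusted p = 0.0846). DESeq2 on the recovered reads called Fxyd1 lower (DESeq2 adjusted p = 0.0272).

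The remaining 4 lists gave 0 calls by limma and by edgeR. Of 7 KCNQ and KCNE relatives, 2 were higher and 1 lower at an unadjusted p under 0.05. Of 9 inward rectifier relatives of Kcnj10, 1 was higher and 1 lower at an unadjusted p under 0.05, and DESeq2 called 1 lower, Kcnj12. Kcnj12 had a log2 fold change of -1.23 ± 0.32 and Kcnj3 one of 1.48 ± 0.61 (SE, limma adjusted p of 0.0595 and 0.206), and neither exceeded 66.4 normalised read counts in any library.

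Of 7 cation-chloride cotransporter relatives of Slc12a2, 0 were higher and 1 lower at an unadjusted p under 0.05, and DESeq2 called 1 lower, Slc12a4, a potassium-chloride cotransporter gene. Slc12a4 differed by -0.42 ± 0.13 on the log2 scale (SE, limma adjusted p = 0.0926). Slc12a9, the gene with the next smallest p, differed by -0.11 ± 0.10 (SE, limma adjusted p = 0.610). Of 8 genes of the WNK kinase cascade, which phosphorylates these cotransporters, 0 were higher and 1 lower at an unadjusted p under 0.05 and DESeq2 called 0. Wnk2, which is also one of the marginal cell markers, had a log2 fold change of -0.45 ± 0.17, and Cab39l one of 0.26 ± 0.12 (SE, limma adjusted p of 0.177 and 0.253). The median log2 fold change of the kinase list was -0.00066, that of the cotransporter list -0.16, that of the inward rectifier list -0.40, that of the KCNQ and KCNE list 0.36 and that of the 7 genes described here -0.09.

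**Figure D5:**
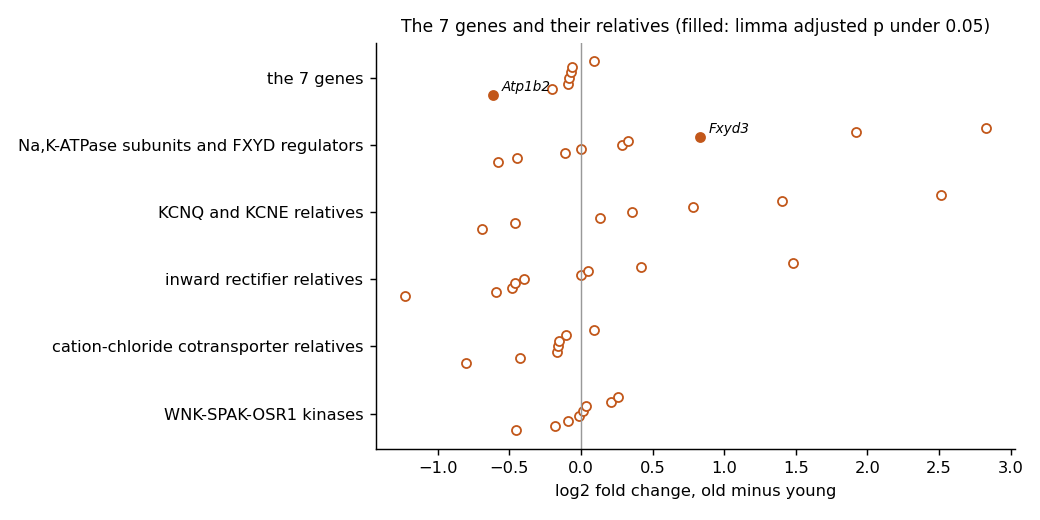
Log2 fold change, old minus young, of the 7 genes and of the 40 tested genes in 5 lists of relatives; each point is a gene and a filled point marks a limma adjusted p under 0.05 over all genes. Atp1b2 at -0.61 and Fxyd3 at 0.83 are filled, and the other points are open.

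Esrrb, a nuclear receptor gene of marginal cells whose product controls strial ion transport genes in mice, had 19420, 17617 and 25014 normalised read counts in old replicates 1, 2 and 3, against 19136, 7063 and 11466 in young replicates 1, 2 and 3. The groups overlapped through young replicate 1, and the difference was 0.82 ± 0.34 on the log2 scale (SE, limma adjusted p = 0.225).

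For each gene, the pair of genes with the most similar values over the 6 libraries was sought among 12800 named genes whose values averaged 50 or more, by Pearson correlation of the log2 values, as a description only since all genes share the same libraries and their scaling. Kcnq1 was most like Glis2 and Hnrnpul1 (r = 0.998 and 0.988), Kcne1 most like Hsd17b4 and Slc26a1 (0.991 and 0.986), and Kcnj10 most like Epm2a and Cep350 (0.991 and 0.991). Slc12a2 was most like Sh3bp4 and Gng7 (0.997 and 0.993), Atp1b1 most like Sharpin and Prrx1 (0.994 and 0.993), and Bsnd most like Tigd2 and Ccm2 (0.996 and 0.995). Atp1b2 was most like Pomgnt1 and Adgrl1 (0.995 and 0.995). None of the 7 genes was among the nearest pair of another. Adgrl1, which encodes an adhesion receptor of the latrophilin family, had 1368, 1476 and 1883 normalised read counts in old replicates 1, 2 and 3, against 2322, 2439 and 2489 in young replicates 1, 2 and 3, a log2 fold change of -0.63.

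In GRCm38, the assembly that mm10 names, Kcnq1 lies on chromosome 7 from 143106362 to 143427042, Kcne1 on chromosome 16 from 92345982 to 92359468 and Kcnj10 on chromosome 1 from 172341210 to 172374085. Slc12a2 lies on chromosome 18 from 57878678 to 57946821, Atp1b1 on chromosome 1 from 164437109 to 164458355, Atp1b2 on chromosome 11 from 69599736 to 69605942 and Bsnd on chromosome 4 from 106483456 to 106492283.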

How the data were processed

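Each of the 6 libraries holds RNA of 1 mouse, extracted with the miRNeasy Mini Kit and prepared with the TruSeq RNA kit, per the labels. The submitters' processing notes name TopHat2, Partek, DESeq2 and mm10, with no roles or versions; the annotation used for counting was not stated there. The authors deposited one signal per gene and library, a read count divided by that library's size factor, beside their own p-value, adjusted p and fold change for old against young, the last a signed score in which a minus sign marks genes lower in old mice. Division by the step of each library (0.946 to 1.05) returned values within 0.1 of whole reads in 99.9% of cases. These recovered reads entered edgeR 4.0.16 and DESeq2 1.42.0 as alternatives.

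The test was limma 3.58.1 in R 4.3.3, with trend and robust variance, on log2(value + 1), a scale on which changes of genes with few reads come out too small. Its p-values were adjusted by Benjamini and Hochberg's method over 17091 genes, all of which passed the filter of a mean of 1. The 7 genes and all lists were chosen with earlier results of these data known. Named are the 7, Esrrb, Kcnq1ot1, single markers at or near 0 (Tyrp1), the 2 genes with the smallest p in each list of relatives and the 2 genes most like each of the 7. Some genes that this rule picks are not reported here. Outside this rule, and chosen after their values were seen, are Atp1b3, Nme7, Xist, Dct, Pmel, Otos, Tbx18 and Cldn11. Gene lengths are merged exons of GENCODE M21, where 16799 symbols matched. Any 2 libraries differed beyond sampling noise, and the deepest held 1.055 times the reads of the shallowest. The p-values rest on the spread between these mice and on the variance model. The limma code was tested on simulated data. Alternatives were pseudocounts of 0.1 and 10, quantile normalisation, no trend, a mean of 10, no filter, blocking by replicate number, leaving out each library, thresholds of 0.01 and 0.1, the authors' p-values and the count tests.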

Additional observations from a re-analysis of the deposited data

How the results depend on the processing

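Over 17 alternative fits, Kcnq1 and Bsnd kept their direction and were never called, but without 1 library Kcnq1 ran from -0.35 (without old replicate 3) to -0.059 (without old replicate 2) and Bsnd from 0.0046 (without old replicate 3) to 0.22 (without old replicate 2) on the log2 scale. Atp1b2 was lower in old mice in all 17 and was called in 10, and 0 of the 7 genes were called with quantile normalisation, without trend and robust variance, with the replicate number as a block, at a threshold of 0.01, and without young replicates 1, 2 or 3 or old replicate 1, so that the count ran from 0 to 1 without 1 library. The 17 fits are not independent of each other. Dropping the filter changed nothing, since all genes had passed it. DESeq2 on the recovered reads gave Atp1b2 nearly the adjusted p of the authors' deposited table (5.94e-05 and 5.92e-05). Atp1b2 had limma adjusted p of 0.078 without trend and 0.0616 with the block. The deviations of same-numbered libraries from their group means had correlations of -0.24, -0.10 and -0.09. These cannot settle whether the mice were paired, since the deviations within a group sum to 0. Pairing by number left the 4 ratios at the same values, with exact permutation p of 0.25 to 0.5. The smallest p that 3 pairs allow is 0.25, so this test could not call a difference. Values near 0 changed sign: with quantile normalisation Kcne1, Kcnj10, Slc12a2 and Atp1b1 had log2 fold changes of 0.071, 0.013, 0.13 and 0.017. Without 1 library Kcne1 ran from -0.18 to 0.028, Kcnj10 from -0.31 to 0.17, Slc12a2 from -0.21 to 0.021 and Atp1b1 from -0.16 to -0.00996, positive for Kcne1 without young replicate 1 and for Kcnj10 and Slc12a2 without old replicate 2. The cause was not tested. The count of all genes called was 898, and 337 without trend and robust variance, 406 with the replicate block, 1819 with DESeq2, 1818 in the authors' deposited table, 210 and 1642 at thresholds of 0.01 and 0.1, and 230 to 1136 without 1 library (561, 288 and 230 without young replicates 1, 2 and 3). Without 1 library, calls ran from 0 to 3 of 9 Na,K-ATPase and FXYD genes, with 3 without old replicate 1 and 0 without young replicate 2. They ran from 0 to 1 among KCNQ and KCNE relatives (1 without old replicate 1), from 0 to 1 among inward rectifiers (1 without old replicates 1 or 2) and from 0 to 2 among cotransporters (2 without old replicate 2). With a pseudocount of 10 or quantile normalisation 1 inward rectifier, Kcnj12, was called. The ratio of Atp1b1 to Atp1b2 differed by 0.403 to 0.634 on the log2 scale without 1 library. At 37055355 to 39103398 reads a library the 7 genes are counted with little sampling error. The spread between 3 mice and the variance model set the width of the intervals. The interval of Kcnj10 was -0.56 to 0.42 on the log2 scale in the main fit and -0.70 to 0.56 without trend and robust variance.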
